A study of Mus musculus with 9 samples.

Results

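Irs1 and Prss23 are a pair of mouse genes that each share exon sequence with a feature annotated on the other strand, Gm9747 opposite Irs1 and Prss23os opposite Prss23. These 4 features, of 55228 with a count, were chosen by their counts in the 9 libraries described here, with earlier results for all groups in view. Their levels and differences are therefore given as a description, without a test.

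Sequencing covered uterine RNA of 3 mice with a sham operation, 3 with an injury and 3 that received CRCs after the injury, and each mouse gave 1 library. The mice were wild-type (WT) C57BL females, 8 weeks old, and tissue was taken on day 7. The injury was mechanical, made with a 27 gauge needle in all mice outside the sham group. Injured mice then received 50 μL of PBS, and the CRC group received WT CRCs, which are endometrial epithelial cells grown in culture by conditional reprogramming, in 50 μL.

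Irs1 encodes insulin receptor substrate 1, a docking protein that activated insulin and IGF1 receptors phosphorylate and that passes the signal on to PI3K and AKT. In the rodent uterus, IGF1 made under oestrogen acts through its receptor and this substrate on the epithelium. Prss23 encodes a secreted serine protease that is known as an oestrogen-responsive gene in breast cancer cells. Transcripts from the strand opposite a gene are common in mammals, and many of them have no known function.

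Depth on features was low. The sham libraries held 325384, 317754 and 327883, the injury libraries 290684, 280886 and 282937, and the CRC libraries 288619, 289964 and 290833 counts. They made up 0.776% to 0.898% of the records of a library, so low features rest on very few reads. The sham libraries were unlike each other. Reads that matched more than 1 feature numbered 2571 in sham replicate 1, but 28622 in replicate 2 and 24851 in replicate 3, against 1751 to 6470 in the injury and CRC libraries. Reads that did not align made up 1.61%, 3.13% and 2.52% of the sham records and 1.36% to 1.81% of the others. For the members and the features called against sham, results without sham replicates 2 and 3 are therefore given as well.

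The labelled tissue was checked against marker genes on their own features. All 8 smooth muscle markers had counts, led by Myh11, which had 68, 81 and 78 counts in the sham, 42, 45 and 35 in the injury and 33, 20 and 57 in the CRC libraries. All 7 stroma markers had counts, led by Hoxa11. Of 9 epithelium markers, Cdh1 and Foxa2 had 0 counts in every library, and the most abundant, Muc1, had 27 counts over all 9. The 9 markers together summed to 3 to 15 counts per library, so the endometrial epithelium could hardly be seen on these features.

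Irs1 (ENSMUSG00000055980.2) runs on the minus strand from 82233101 to 82291416 of chromosome 1 (GRCm38), with 1 transcript of 2 exons. Its coding sequence of 3693 bp is held by exon 1, and exon 2, from 82233101 to 82237604, is 3′ UTR. Gm9747 (ENSMUSG00000022591.5) is a single exon of 2822 bp on the plus strand, from 82233112 to 82235933. It lies wholly inside that 3′ UTR and covers 30.9% of the exon length of Irs1. The annotation types Gm9747 as protein coding, with a coding sequence of 312 bp.

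Prss23 (ENSMUSG00000039405.7) runs on the minus strand from 89507783 to 89527187 of chromosome 7, with 8 transcripts and a coding sequence of 1146 bp. Prss23os (ENSMUSG00000030623.4) is typed as antisense and runs on the plus strand from 89510007 to 89511873, with 4 transcripts. Here the shared exon sequence is mainly coding. It spans 864 bp, from 89510007 to 89510870, of which 853 bp are coding sequence of Prss23 and 0 are 3′ UTR. It makes up 54.3% of the exons of Prss23os and 22.9% of those of Prss23. No further annotated exon overlapped any of the 4 features on either strand.

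**Figure D1:**
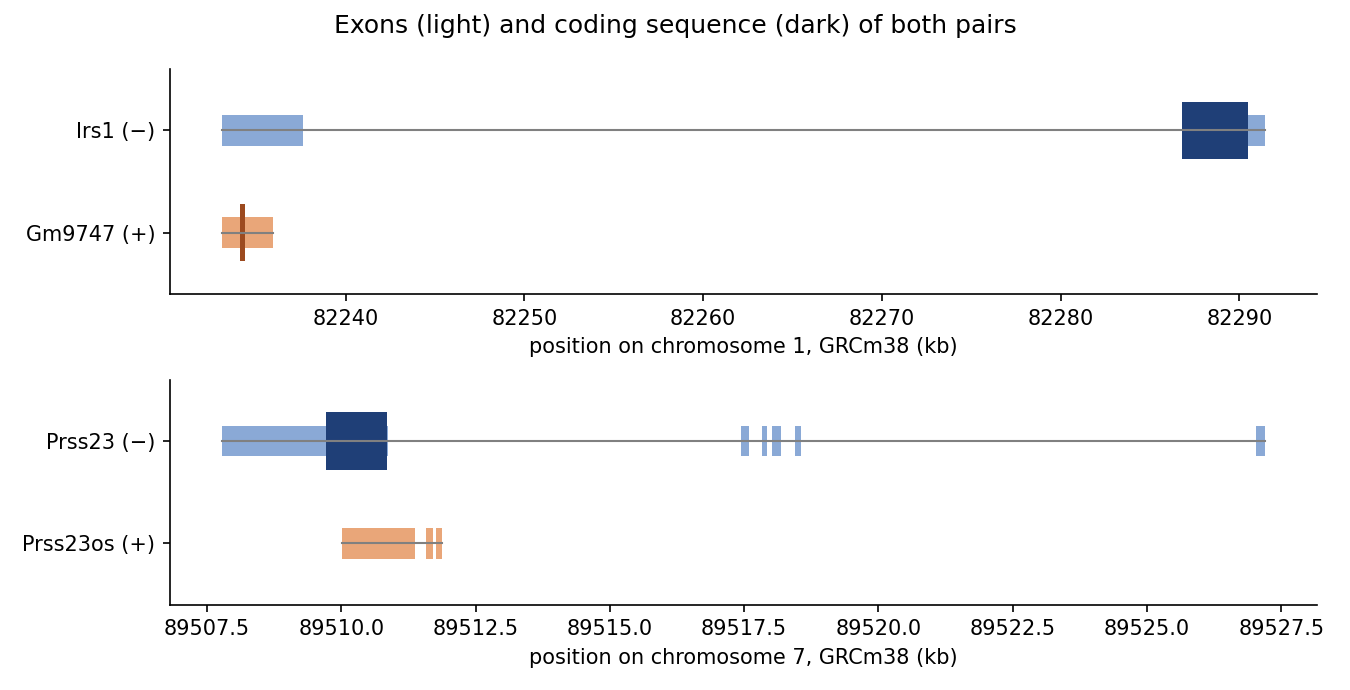
Maps of both loci on GRCm38, with position in kb on the horizontal axis, exons as light boxes, coding sequence as dark boxes and the strand in brackets. Gm9747 lies inside the last exon of Irs1, and Prss23os covers the start of the coding sequence of Prss23.

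The first 90 bases of the Prss23 coding sequence, at chr7:89510770-89510859, are shown as both features hold them, because a read from here belongs to one feature or the other by strand alone. Capitals mark the start codon of Prss23 and the same bases on the other strand.
Prss23, minus strand: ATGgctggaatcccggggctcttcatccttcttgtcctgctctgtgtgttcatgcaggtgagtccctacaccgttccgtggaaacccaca
Prss23os, plus strand: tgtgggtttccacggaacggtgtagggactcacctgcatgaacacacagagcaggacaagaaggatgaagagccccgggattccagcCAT

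The sources used here do not give the strand setting with which reads were counted. Each value below is thus the count on a feature as deposited, and from which strand its RNA came cannot be told apart. Counts on own and opposite features may be exchanged, which was not tested. Reads on no feature made up 87.3% to 91.6% of the records of a library.

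Irs1 held few counts. The sham libraries had 11, 12 and 10, the injury libraries 7, 16 and 7 and the CRC libraries 8, 5 and 12. The groups overlapped, and the highest and the lowest library both lay outside sham. Scaled to CPM, which divides a count by the library's total on features after TMM scaling, sham had a mean of 38.6 ± 5.02 (SD, n = 3), injury one of 35.0 ± 18.4 and CRC one of 25.4 ± 10.7.

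Gm9747 held 2499, 1925 and 2086 counts in the sham, 1668, 1813 and 1582 in the injury and 2117, 2679 and 2365 in the CRC libraries. It ranked 10 in mean CPM among the 3722 features that passed the filter on low counts. In CPM it measured 8105, 7125 and 7459 in the sham libraries, 5788, 6375 and 5551 in the injury libraries and 6448, 8232 and 7213 in the CRC libraries. The injury libraries were the 3 lowest, below every sham and every CRC library, while sham and CRC overlapped.

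Prss23 had 0 counts in all 9 libraries. In 1 library, a count of 0 allows up to 3 counts by counting error alone, or 9.14 to 11.1 CPM at these depths. The limit for a group of 3 libraries at 0 is lower and was not computed. A difference between groups too small to give counts could not be seen. Prss23 was the 1 feature of the 4 that did not pass the filter.

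Prss23os held 2535, 1950 and 2205 counts in the sham, 2304, 2427 and 2324 in the injury and 720, 765 and 691 in the CRC libraries. It ranked 11 in mean CPM, next to Gm9747. In CPM it measured 8222, 7218 and 7885 in the sham libraries, 7995, 8534 and 8155 in the injury libraries and 2193, 2351 and 2108 in the CRC libraries. The 3 CRC libraries lay far below the other 6, and the sham and injury libraries overlapped.

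**Figure D2:**
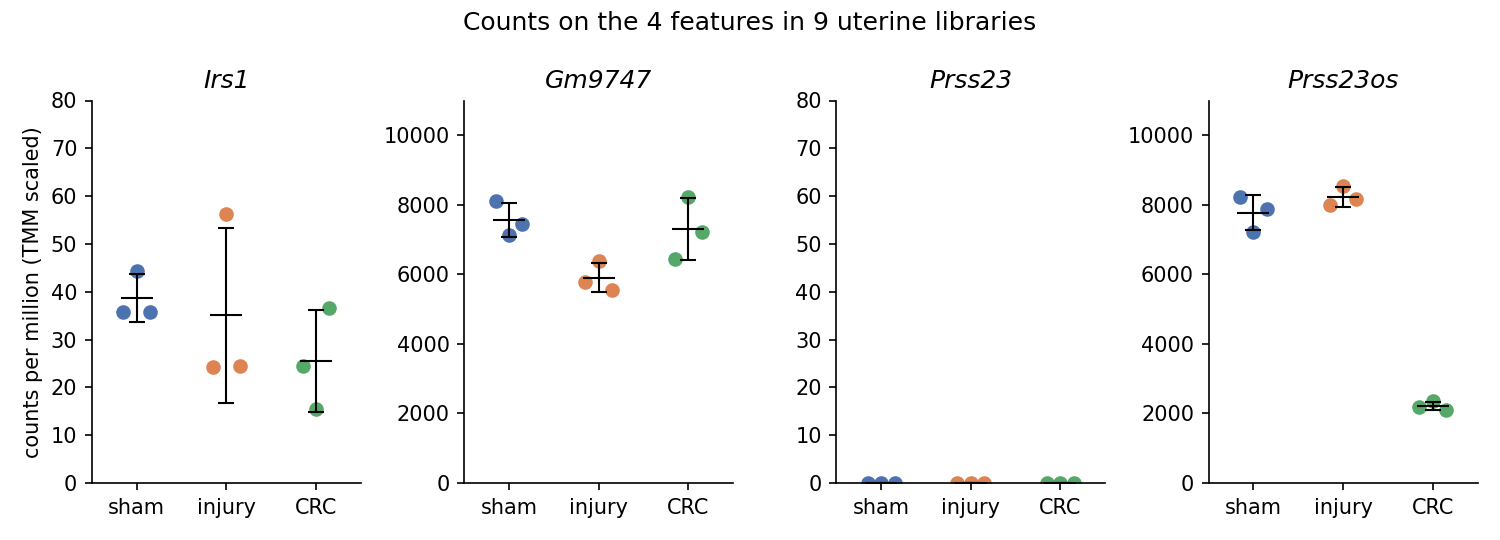
CPM of Irs1, Gm9747, Prss23 and Prss23os in each library (points) by group, with the mean and SD of 3 libraries as a line and bars, on linear axes that differ between own and opposite features. Prss23os lies at 2108 to 2351 CPM in CRC and at 7218 to 8534 in sham and injury, and Prss23 is at 0 throughout.

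Within each pair nearly all counts were on the opposite feature. Gm9747 took 99.1% to 99.8% of the counts of its pair, with the lowest share in injury replicate 2 (exact 95% binomial interval 98.6% to 99.5%). Prss23os took 100% in every library, with lower bounds of 99.5% to 99.9%. These intervals cover counting error only, since PCR copies of a molecule were not told apart.

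Per kb of exon, Gm9747 held 561 to 949 counts and Irs1 0.547 to 1.75, a ratio between 367 in injury replicate 2 and 1736 in CRC replicate 2. With the length of the overlap for both features, which leaves the ratio of their whole counts, it lay between 113 and 536. Counts were not limited to the overlap. Prss23os held 434 to 1592 counts per kb. Against the limit of 3 counts on Prss23 in a library, its level per kb was at least 545-fold higher in CRC replicate 3. In sham replicate 1 it was at least 1999-fold higher. As ratios of whole counts these limits were 230-fold and 845-fold. Other pairs of features that share exon sequence across strands were counted where they held at least 100 counts between them. Of 1022 pairs of a coding gene and a non-coding opposite feature, the kind to which Prss23 and Prss23os belong, the opposite feature held more in 720 (70.5%) and at least 99% in 267 (26.1%). Of 837 pairs typed as coding on both strands, like Irs1 and Gm9747, 1 feature held at least 99% in 161 (19.2%).

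After injury, Gm9747 was the 1 member without overlap with sham in TMM-scaled CPM. It measured 5905 ± 424 CPM (SD, n = 3) in injury and 7563 ± 498 in sham, a log2 fold change of -0.36 (SE 0.12) and a fold of 0.781. Its groups did not overlap, as was so, with injury lower, for 7.82% of all features tested, and its log2 fold change lay at percentile 22.6 of theirs. Without sham replicates 2 and 3 the log2 fold change was -0.47. Prss23os measured 8228 ± 277 CPM in injury and 7775 ± 511 in sham. Its groups overlapped, with a log2 fold change of 0.08 (SE 0.12, percentile 57.9) that was -0.01 without these sham replicates. For Irs1 the log2 fold change was -0.14 (SE 0.57, percentile 39.1), and -0.04 without these sham replicates. It was -0.64 without injury replicate 2 and turned to 0.07 without injury replicate 1 and 0.06 without injury replicate 3.

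In CRC against sham the order was another. Prss23os was 3.51-fold lower in CRC, at 2217 ± 123 CPM (SD, n = 3), with a log2 fold change of -1.81 (SE 0.12). It lay at percentile 3.39 of the log2 fold changes of all features tested, and 17.8% of all features were lower in CRC without overlap. In bulk tissue, fewer cells of a type and less RNA per cell cannot be told apart. Gm9747 overlapped with sham at 7298 ± 895 CPM, with a log2 fold change of -0.05 (SE 0.12, percentile 45.5) that turned to 0.04 without CRC replicate 1. For Irs1 it was -0.59 (SE 0.58, percentile 22.0), with overlap, and lay at -0.32 without CRC replicate 2 and -0.94 without CRC replicate 3. Without sham replicates 2 and 3 the log2 fold changes were -1.95 for Prss23os, -0.21 for Gm9747 and -0.53 for Irs1.

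Between CRC and injury neither opposite feature overlapped, and their directions were opposite. Prss23os was 3.71-fold lower in CRC (log2 fold change -1.89, SE 0.12, percentile 2.20), where 17.0% of all features were lower without overlap. Gm9747 was higher in CRC, with a log2 fold change of 0.31 (SE 0.12, percentile 68.4) and a fold of 1.24, where 16.5% were higher without overlap. For Irs1 the log2 fold change was -0.45 (SE 0.59, percentile 22.8), with overlap, and turned to 0.04 without injury replicate 2. The comparisons share libraries and are not independent of each other.

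The level of Gm9747 depended on the scaling. TMM factors ran from 0.850 to 0.948 in the sham, 0.991 to 1.01 in the injury and 1.12 to 1.14 in the CRC libraries. With all records of a library as its size, the median over all features moved on the log2 scale by 0.09 in injury against sham, 0.29 in CRC against sham and 0.20 in CRC against injury. The log2 fold changes of Gm9747 were then -0.27, 0.24 and 0.50, so that its direction against sham turned in CRC. Those of Prss23os were 0.17, -1.52 and -1.69.

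A ratio within a library does not depend on its scaling. Per kb of exon, the level of Prss23os divided by that of Gm9747 was 1.80, 1.80 and 1.87 in the sham libraries, 2.45, 2.37 and 2.60 in the injury libraries and 0.603, 0.506 and 0.518 in the CRC libraries. The 3 groups did not overlap, with injury highest and CRC lowest. Both features were chosen by their counts, and how often ratios of other features separate the groups was not counted. The group means were 1.82 ± 0.044, 2.48 ± 0.12 and 0.542 ± 0.053 (SD, n = 3).

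The nearest protein-coding genes held almost no counts on their own features, and features opposite them were not examined. Nyap2 and Rhbdd1, on either side of Irs1 at 891337 and 25036 bp, held 0 in every library and 0 to 7. Fzd4 and Me3, on either side of Prss23 at 94649 and 105205 bp, held 0 to 2 and 0 to 7.

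The features most like each member were taken as the 3 with the highest Pearson correlation of log2 CPM over the 9 libraries, among features that averaged 50 counts or more. Those most like Prss23os were Ccdc86 (r = 0.99), Gm43708 (r = 0.99) and St3gal6 (r = 0.98). By Spearman's correlation 0 of these 3 were among the 3 most like Prss23os, against 2 of 3 for Gm9747 and 1 of 3 for Irs1. In CPM, Ccdc86 measured 666 to 830 in sham and injury and 175 to 198 in CRC. Gm43708 and St3gal6 too were lower in every CRC library than in the other 6, and within the 6 sham and injury libraries the correlations of the 3 were 0.38, -0.31 and -0.49, so the likeness rests on the CRC libraries. Those most like Gm9747 were Rasa2 (r = 0.91), Syn3 (r = 0.88) and Clvs1 (r = 0.85), and without the CRC libraries the correlations were 0.94, 0.94 and 0.81. Irs1, at 5 to 16 counts, was most like Gm15910, Gm35290 and Gm14540 (r = 0.83, 0.82 and 0.81), where its own counting error is large. Of these 9 features 5 share exon sequence with a feature on the other strand: Ccdc86 with Ptgdr2, St3gal6 with Dcbld2, Syn3 with Timp3, Clvs1 with Asph and Gm14540 with Gm42895. Gm35290 could not be placed in the annotation.

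Genes of the insulin and IGF pathway, of steroid response and of the serine proteases were compared with the members from lists of 102 genes in all, with 26 features opposite them. Of these 128 features, 24 could be tested, 12 of either kind. A feature was called at an adjusted p under 0.05 in edgeR's quasi-likelihood test, adjusted by Benjamini-Hochberg over all 3722. The lists, those of markers included, were chosen with earlier results of these data known. Calls and adjusted p-values of their features therefore describe these libraries and are no independent test. In injury against sham 0 list features were called higher and 1 lower, where 0.269% and 0.161% of all features were called. In CRC against sham 4 were higher and 5 lower, against 8.03% and 12.0% of all features. In CRC against injury 1 was higher and 4 were lower, against 5.10% and 7.82%. These counts depended on single libraries. In injury against sham the 16 calls among all features became 154 without sham replicate 1 and 3 without sham replicate 3 or injury replicate 2. List features called in CRC against sham fell from 9 to 5 without sham replicate 3, and those in CRC against injury from 5 to 2 without injury replicate 3 or CRC replicate 2. The median log2 fold changes of the 24 were -0.12, 0.32 and 0.27, and those of all features -0.01, 0.03 and 0.01. With all records as library size, 82.4% of all calls were higher in injury against sham, 69.6% in CRC against sham and 63.9% in CRC against injury, in place of 62.5%, 40.1% and 39.5%. Of the list features, 0 were then called in injury against sham, 6 were higher and 5 lower in CRC against sham, and 3 were higher and 2 lower in CRC against injury, so that more were higher than lower in both comparisons of CRC.

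Among ligands and receptors, Igf1r, the receptor of IGF1, was the 1 gene of 5 tested. Its counts were 27, 11 and 15 in the sham, 24, 14 and 8 in the injury and 36, 24 and 34 in the CRC libraries, and it was not called by edgeR or DESeq2, nor at an unadjusted p under 0.05. Of 7 IGF binding proteins 0 could be tested, and of 14 other adaptors and regulators of the receptors 0, among them Irs2, which had 0 counts in every library. The most abundant of these 14, Shc1 and Gab1, had 22 counts each over all libraries.

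Downstream, 4 of 21 genes of PI3K, AKT and mTOR signalling were tested. Of these, Tsc2 had 1248 counts against 97 on Pkd1 opposite it, and Rps6kb1 had 457 against 441 on Rnft1. Pkd1 and Rnft1 were not called by edgeR in any comparison. Tsc2, whose product restrains mTOR, fell after injury from 607 ± 57.1 to 348 ± 46.1 CPM (SD of 3 libraries), a log2 fold change of -0.80 (edgeR's quasi-likelihood test, Benjamini-Hochberg adjusted p = 0.0366). The call was lost with all records as library size, no filter, the compared groups alone or a replicate block. Among the 9 fits without 1 library it held only without sham replicate 1, while the log2 fold change lay between -0.91 and -0.74. The log2 fold change of Tsc2 was -0.65 without sham replicates 2 and 3. Rps6kb1, a kinase that mTOR activates, rose in CRC against sham by a log2 fold change of 0.89 (edgeR, adjusted p = 0.0285). Gm20402, opposite Foxo1, a transcription factor that AKT inhibits, fell by 1.11 on the log2 scale in the same comparison (edgeR, adjusted p = 0.0012). The call of Gm20402 held with each of the 6 libraries left out in turn, and that of Rps6kb1 was lost without sham replicate 2 or 3 or CRC replicate 1 or 2. The call of Gm20402 held at a log2 fold change of -0.83 without sham replicates 2 and 3, and that of Rps6kb1 was lost at 0.49. In CRC against sham 4 list features in place of 9 were then called, 0 of them higher.

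Of 38 genes of oestrogen and progesterone response, 5 were tested and 26 had fewer than 10 counts over the 9 libraries. Nr2f2, a stromal transcription factor, rose in CRC against sham from 141 ± 16.2 to 249 ± 27.2 CPM (edgeR, log2 fold change 0.82, adjusted p = 0.0189). Padi2, a peptidyl arginine deiminase, fell in CRC against sham and against injury, with log2 fold changes of -2.26 and -2.02 (edgeR, adjusted p = 0.0168 and 0.0493). The call of Nr2f2 was lost without sham replicate 1 or 3 or CRC replicate 2 or 3. It was lost too, at a log2 fold change of 0.95, without sham replicates 2 and 3, as was that of Padi2 against sham, at -2.09. The call of Padi2 was also lost against sham without sham replicate 3 or CRC replicate 3, and against injury without any 1 of the 6 libraries or sham replicate 3. With no filter on low counts, Nr2f2 and Padi2 against sham were not called, nor was Padi2 against injury, which was also lost with upper quartile scaling, all records as library size or a replicate block. Pgr, the progesterone receptor, was not called in any comparison. It measured 262 ± 53.7, 177 ± 18.7 and 248 ± 23.2 CPM in sham, injury and CRC.

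Of the features opposite steroid response genes 6 were tested. Greb1, an oestrogen-induced gene, had 0 counts, and Gm48140 opposite it fell in CRC, with log2 fold changes of -1.08 against sham and -0.88 against injury (edgeR, adjusted p = 0.00141 and 0.012). Padi1 had 1 count, and Gm13032 opposite it fell likewise, with -4.70 and -4.14 (edgeR, adjusted p = 2.32e-05 and 7.99e-05). Ccnd1, a cyclin gene, had 851 counts, and LTO1 opposite it, with 3058, fell with -1.19 and -1.01 (edgeR, adjusted p = 7.58e-07 and 1.71e-05). Ncoa3, a coactivator gene, had 225 counts against 87 on Sulf2 opposite it, and Nr2f2 had 498 against 1356 on B130024G19Rik. Higher in CRC were Sulf2 against sham (edgeR, log2 fold change 1.78, adjusted p = 0.0425) and B130024G19Rik against injury (edgeR, 0.58, adjusted p = 0.0442). The calls of Gm13032 and LTO1 in both comparisons, and of Gm48140 against sham, held with each library left out. Gm48140 against injury was not called without injury replicate 3 or CRC replicate 2, nor with all records as library size. Among the 9 such fits Sulf2 was called only without sham replicate 1 or 2, and B130024G19Rik only without sham replicate 1 or 2 or injury replicate 2. When sham replicates 2 and 3 were left out, the calls of Gm48140, Gm13032 and LTO1 against sham held, with log2 fold changes of -1.09, -4.35 and -1.20, and that of Sulf2 was lost at 1.39. Sulf2 was not called with no filter, the compared groups alone or a replicate block, nor B130024G19Rik with no filter, a replicate block or DESeq2's Wald test.

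Of 17 other serine proteases, Furin and Tmprss2 were tested. Tmprss2, a membrane-bound protease, rose in CRC against sham from 16.0 ± 14.6 to 72.3 ± 27.3 CPM (edgeR, log2 fold change 2.13, adjusted p = 0.0162), a call lost without CRC replicate 1 and, at a log2 fold change of 1.81, without sham replicates 2 and 3. The implantation proteases Prss28 and Prss29 had 0 counts in every library.

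Some markers of smooth muscle and stroma were lower in CRC against sham, as Prss23os was. Of 3 smooth muscle markers tested on their own features, Myh11 fell against sham (edgeR, log2 fold change -1.25, adjusted p = 0.00299), and the 8 markers summed to 399, 559 and 490 CPM in the sham, 291, 334 and 316 in the injury and 241, 234 and 311 in the CRC libraries. Tagln and Lmod1, the other 2, were not called, with log2 fold changes of -1.13 and 0.13. After injury, where Prss23os overlapped with sham, the sums on own features were already below every sham library, and those of injury and CRC overlapped. The 3 tested features opposite the smooth muscle markers, Gm48529, Gm11946 and Pcsk7, also fell, with log2 fold changes of -1.28, -0.88 and -1.32 (edgeR, adjusted p = 1.76e-10, 0.000207 and 0.0179). Of all features, 12.0% were called lower in CRC against sham. In CRC against injury Gm48529 and Pcsk7 fell, with -0.94 and -1.50 (edgeR, adjusted p = 3.69e-08 and 0.00933), where 7.82% of all features were called lower. Features opposite the smooth muscle markers, mostly Gm48529, summed to 71462, 67384 and 67003 CPM in the sham libraries. Their sums were 54842, 53331 and 54416 in the injury and 29491, 28080 and 27780 in the CRC libraries, so the groups did not overlap. Of 3 stroma markers tested, Col1a1 and Col3a1 fell in CRC against sham, with -2.74 and -1.93 (edgeR, adjusted p = 0.00323 and 0.0219), against the same 12.0% of all features. Hoxa11 was not called there at -0.15, nor was Hoxa11os opposite it at -0.05. The 7 stroma markers summed to 136, 196 and 318 CPM in the sham, 111, 162 and 126 in the injury and 113, 67.6 and 110 in the CRC libraries. In CRC against injury 0 markers of either list were called on their own features by edgeR, and Myh11 had a log2 fold change of -0.34. The calls of Myh11, Gm48529 and Gm11946 held with each library left out. That of Col1a1 was lost without sham replicate 3, that of Col3a1 without sham replicate 2 or CRC replicate 2 or 3, and that of Pcsk7 against sham without sham replicate 3 or CRC replicate 2 or 3 and against injury without CRC replicate 2. With sham replicate 1 alone as sham, the calls of Myh11, Gm48529 and Gm11946 held, with log2 fold changes of -1.03, -1.40 and -0.82, and those of Col1a1, Col3a1 and Pcsk7 were lost, at -1.83, -1.22 and -1.07. With no filter Col3a1 and Pcsk7 were not called against sham, nor was Pcsk7 with all records as library size. A filter of at least 10 counts in every library left Col1a1, Col3a1, Pcsk7, Padi2, Sulf2 and Tmprss2 untested, and the filter on the compared groups alone left Col1a1, Col3a1 and Padi2 untested. The part of these markers in the level of Prss23os was not tested.

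Markers of epithelium, endothelium, leukocytes and adipocytes were low. The 9 epithelium markers summed to 10.4 to 48.7 CPM. Of 5 endothelium markers 0 were tested, with sums of 0 to 55.1 CPM led by Pecam1. Of 6 leukocyte markers Ptprc, Adgre1, Cd3e and Lyz2 were at 0, and the sums were 0 to 7.03 CPM, with 2 counts each on Cd68 and Itgam as the highest totals. Of 6 adipocyte markers Adipoq, Fabp4, Cfd and Cidec were at 0, and the sums were 0 to 94.9 CPM, led by Lep, which had 27 counts in injury replicate 2. Of 8 markers of ovary and oviduct, 6 had fewer than 10 counts over all libraries, with Cyp19a1, Cyp11a1 and Inha at 0. The other 2, Star with 1236 counts and Foxl2 with 109, were tested. The sums were 408 to 645 CPM, above the stroma sum in every library, and came mostly from Star. Of the 2 tested, 0 were called by edgeR or DESeq2. At an unadjusted p under 0.05 in edgeR's test, Foxl2 was lower in CRC against sham, with a log2 fold change of -1.13. At the same threshold Star was higher in CRC against injury, with 0.52.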

How the data were processed

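The authors deposited, for each library, whole-number counts of reads on 55228 named features, without normalization, and 5 further rows for reads not counted, which held 99.2% of all records and stayed out of library sizes. The submitters' processing notes name HISAT2 2.1.0 and StringTie 2.1.1. The deposited files and their 5 further rows carry HTSeq's names, and its version and strand setting are not given in the sources used here. Groups and replicate numbers came from the sample labels. Positions came from GENCODE M21 on GRCm38, to which 53567 features were matched by name, and the printed sequences from its transcripts.

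Software was edgeR 4.0.16 and DESeq2 1.42.0 under R 4.3.3, and pandas 2.3.3, numpy 2.4.6 and matplotlib 3.10.9 under Python 3.11.15. Features passing filterByExpr (3722) were scaled by TMM and 1 quasi-likelihood model of edgeR, in its robust form and with no covariate, was fitted to all 9 libraries. SEs are the log2 fold change divided by the root of F. The code was tested on simulated counts. The members and lists were chosen with earlier results of these data known. A first run took library sizes from the tested features alone. They were changed to the counts on all features after its results were seen, which moved the calls in CRC against sham from 745 to 746 and left the calls in the other comparisons at 16 and 481. Named features were the 4 members, list features and marker features called in any comparison (at most 8 per list), the 3 features most like each member, the neighbouring coding genes and the most abundant gene of each marker list. Other features, such as Igf1r, Irs2, Shc1, Gab1, Pgr, Furin, Prss28, Prss29, Tagln, Lmod1, Hoxa11os and markers at 0, were named after their values were seen. Alternatives were DESeq2's size factors, upper quartile scaling, all records as library size, DESeq2's Wald test, no filter, at least 10 counts in every library, the compared groups alone, a replicate block, each library left out, a Spearman correlation, a prior count of 0.5 in place of 2 and the length of the overlap.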

Additional observations from a re-analysis of the deposited data

How the results depend on the processing

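The fall of Prss23os in CRC and the order of Gm9747 between injury and sham and between CRC and injury kept their direction under each alternative. Log2 fold changes of Prss23os lay between -1.95 and -1.52 in CRC against sham and between -1.94 and -1.69 in CRC against injury, and those of Gm9747 between -0.47 and -0.27 in injury against sham and between 0.21 and 0.50 in CRC against injury. Gm9747 in CRC against sham was above 0 in 3 of 16 alternatives, with 0.24 the highest. With all records as library size, Prss23os was at 0.17, -1.52 and -1.69, Gm9747 at 0.24 and 0.50 against sham and injury in CRC, and 0 list features were called in injury against sham. Without sham replicates 2 and 3, which was chosen after seeing the data and leaves 1 sham library, assumed to vary like the other groups, Prss23os was at -0.011 after injury and -1.95 in CRC, Gm9747 at -0.47 and -0.21, 9 features in place of 16 were called in injury against sham, and 0 and 4 list features in place of 1 and 9. The compared groups alone gave 6 features and 0 list features in injury against sham. No filter gave 0 list features there and 3 in place of 5 in CRC against injury. With 1 library left out, calls in injury against sham ranged from 3 to 154, the latter without sham replicate 1, list features from 0 to 1, from 5 to 10 and from 2 to 5 in the 3 comparisons, and Irs1 after injury from -0.64 to 0.066. With a replicate block, 5 features and 0 list features were called in injury against sham and 3 list features in CRC against injury. Correlations of same-numbered libraries lay between -0.10 and 0.08. The labels give no more than the number, so whether these libraries shared a batch is not known. The median ratio per length of Gm9747 to Irs1, 732, was 226 with the length of the overlap, by construction. For the other changes the cause was not tested. With Spearman's correlation, 1 of 3 features most like Irs1 and 0 of 3 most like Prss23os were shared. With library sizes from tested features alone, the setting first used, CRC against sham had 745 calls.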
